A study of Mus musculus with 6 samples.

Results

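The let-7 family of microRNAs (miRNAs) was measured by 9 probes on these arrays, 1 each for mmu-let-7a, mmu-let-7b, mmu-let-7c, mmu-let-7d, mmu-let-7e, mmu-let-7f, mmu-let-7g, mmu-let-7i and mmu-miR-98, written below without the mouse prefix. They were taken by name, as every probe annotated with one of these miRNAs, and make up 9 of 275 mouse miRNA names and 9 of 294 probes. Each probe was printed as 4 spots, so the family filled 36 of the 2240 spots of an array. The cells were G1E-ER4, a mouse erythroid progenitor line that lacks its own GATA-1, a transcription factor needed for red cell maturation, and carries a form of it that estradiol activates. Untreated cells at 0 h (3 arrays) were compared with cells given 1e-07 M estradiol for 24 h (3 arrays), each from a culture grown and harvested independently. All cultures shared the same medium, with fetal calf serum, erythropoietin and stem cell factor. On every array the sample was labelled with the dye Hy3 and hybridised with a common reference in Hy5, which was an equal mixture of the 6 samples. Values are therefore log2 ratios of sample to reference, log2(Hy3/Hy5), and a difference between the groups is estradiol minus untreated. No culture kept for 24 h without estradiol and no cells without the GATA-1 construct were analysed here, so time in culture, estradiol itself and GATA-1 activity cannot be told apart, and the data describe a single line.

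MiRNAs guide Argonaute proteins to messenger RNAs, mainly through a short stretch near their 5′ end called the seed, and members of a family that share a seed share many predicted targets. The let-7 family is made from many genes, is low in early embryos and stem cells and high in differentiated tissue, and represses messages such as those of HMGA2, LIN28 and RAS proteins. LIN28 proteins in turn bind let-7 precursors and block their maturation, and in human erythroid cells LIN28B and let-7 are known for their part in the fetal to adult hemoglobin switch.

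The mature sequences of all 9 members are shown because the comparison of let-7e with its relatives turns on how little they differ. Capitals mark the seed, bases 2 to 8, and the letters are those of RefSeq for GRCm38.p6, where 9 of 9 array names matched the mature form of the 5′ arm.
let-7e: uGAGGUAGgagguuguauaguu
let-7a: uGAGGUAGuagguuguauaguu
let-7c: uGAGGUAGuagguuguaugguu
let-7b: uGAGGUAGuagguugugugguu
let-7d: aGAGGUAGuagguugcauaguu
let-7f: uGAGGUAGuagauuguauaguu
let-7g: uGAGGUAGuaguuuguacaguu
let-7i: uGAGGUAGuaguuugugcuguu
miR-98: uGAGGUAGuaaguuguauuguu

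All 9 sequences are 22 bases long and hold the same seed. Counting from 1 at the 5′ end, with the base of let-7e first, let-7a differs from let-7e by G9U alone, the base right after the seed. The same G9U difference separates let-7e from each of the other members. let-7c adds A19G to it, let-7b adds A17G and A19G, let-7d adds U1A and U16C, and let-7f adds G12A. let-7g adds G12U and U18C, miR-98 adds G11A and A19U, and let-7i adds G12U, A17G, U18C and A19U. The sequences of the printed probes are not in the files, so how far each probe also binds its relatives was not tested.

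The members come from several loci, given here by the mature sequence as annotated in RefSeq for GRCm38.p6. The list holds only the copies found there by name, and may leave out further copies of let-7a or other members. let-7e lies at chr17:17830366-17830387 on the plus strand, inside the gene Spaca6 and beside Mir99b and Mir125a. let-7d (chr13:48536078-48536099), let-7f (chr13:48537889-48537910) and let-7a (chr13:48538239-48538260) lie together on the minus strand of chromosome 13. let-7f has a further copy at chrX:151912353-151912374 inside Huwe1, next to miR-98 at chrX:151913229-151913250, both on the plus strand. let-7c lies at chr15:85706616-85706637 and chr16:77599672-77599693, and let-7b follows the former at chr15:85707325-85707346 in Lncppara, all on the plus strand. let-7g lies at chr9:106178846-106178867 on the plus strand in Wdr82, and let-7i at chr10:122985698-122985719 on the minus strand. A mature miRNA made from more than 1 locus gives a single value here.

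The 6 arrays were alike in size but not in the number of probes above background. A probe counted as above background on an array when a share of 0.5 or more of its spots had a Hy3 median over 2 background SD higher than the median local background, and this held for 37 to 47 probes on untreated arrays and 57 to 62 on estradiol arrays. In Hy5, which carries the same reference on every array, 43 to 74 probes passed on untreated arrays and 81 to 88 on estradiol arrays. The median Hy5 signal of the miRNA spots overlapped, at 885 to 1670 untreated and 1047 to 1172 with estradiol. Median local background reached higher on untreated arrays. It was 536.25 to 1183.5 untreated and 543 to 586.75 with estradiol in Hy5, and 982.5 to 1412 and 1004.75 to 1035.5 in Hy3. Among the erythroid markers, miR-451 passed on 3 estradiol arrays and miR-16 on 2, both on 0 untreated arrays, miR-144 and miR-486 passed on 0 arrays, and the summed background-subtracted Hy3 intensity of the 4 marker probes was 3774 to 5928 untreated and 17666 to 29082 with estradiol. Of 4 myeloid and mast cell markers, 2 were above background on some array, with sums of 7667 to 13217 untreated and 15647 to 18184 with estradiol. Of 2 neural marker probes, 1 was above background on some array, with sums of 1346 to 1972 untreated and 3407 to 4997 with estradiol. Of 4 fibroblast markers, 2 were above background on some array, miR-214 on all 6, and their sums overlapped at 12592 to 23435 untreated and 18979 to 22715 with estradiol. The 3 lymphoid, 2 muscle and 1 liver marker probes were above background on 0 arrays. The sums were not scaled between arrays, and the part of these shifts in the let-7 values was not tested. In bulk RNA fewer cells of a type cannot be told apart from less RNA per cell.

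Estradiol was accompanied by a lower let-7e ratio, and by no change past the threshold in the 3 other members bright enough to test, let-7a, let-7c and let-7d. The let-7e log ratio fell by 0.69 (SE 0.10, 95% interval -0.90 to -0.47, n = 3 per group), a 1.61-fold lower ratio of sample to reference. let-7e was thus the 1 family member called of 4 tested, by limma with Benjamini-Hochberg adjustment over the 51 probes above background on all 3 arrays of a group (adjusted p = 0.00072). Across all 51 tested probes, 13.7% were called, 6 higher (11.8%) and 1 lower, and the lower calls, 1.96% of the probes, consisted of let-7e itself. That split depended on the scaling, with 3 higher and 7 lower on 2 spiked controls and 3 higher and 1 lower under median centring, and let-7e was lower and called under both.

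**Figure D1:**
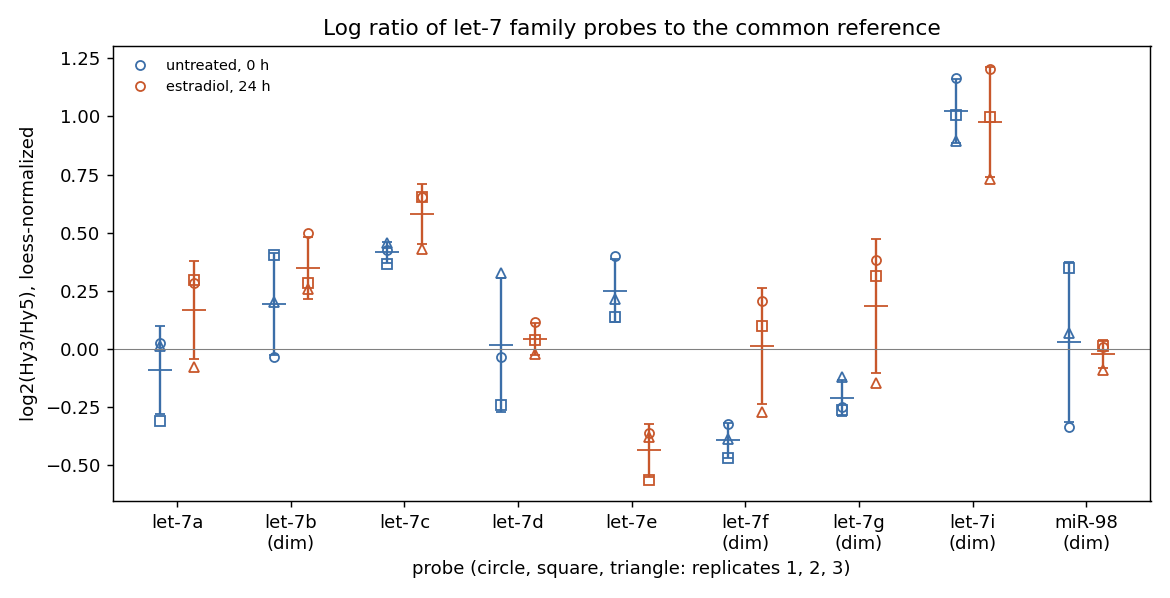
Log2 ratio of sample to reference (vertical axis) for the 9 family members, with 1 symbol per array and a bar and whiskers at the mean and SD of each group. The untreated let-7e points lie between 0.14 and 0.40 and the estradiol points between -0.57 and -0.36, while the groups of let-7a, let-7c and let-7d overlap.

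The 3 untreated arrays gave let-7e log ratios of 0.40, 0.14 and 0.21, and the 3 estradiol arrays -0.36, -0.57 and -0.38. All 3 untreated arrays were above the reference and all 3 estradiol arrays below it, so the groups did not overlap. Their means were 0.25 ± 0.13 and -0.44 ± 0.11 (SD, n = 3 each). Groups without overlap were found for 29.4% of the 51 tested probes. In the authors' deposited tables the let-7e log2 ratios were 0.54, 0.15 and 0.20 untreated and -0.33, -0.53 and -0.36 with estradiol, a difference of -0.71.

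The fall of the let-7e ratio was seen in each of its 4 printed spots. Averaged over arrays, the differences of the single spots were -0.64, -0.71, -0.70 and -0.70. The lowest of 12 untreated spots had a log ratio of -0.03 and the highest of 12 estradiol spots -0.17. Spots of 1 array share a hybridisation and are not replicates of the condition. Their SD within an array had a median of 0.13, with a range of 0.06 to 0.32.

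let-7a, which differs from let-7e by a single base, gave log ratios of 0.02, -0.31 and 0.01 untreated and 0.28, 0.29 and -0.08 with estradiol. The groups overlapped, since estradiol replicate 3 lay among the untreated arrays. The difference was 0.26 (SE 0.13, 95% interval -0.04 to 0.56), which did not pass the threshold (limma, adjusted p = 0.25). Without untreated replicate 3 it was 0.31 and passed (limma, adjusted p = 0.0457). Without untreated replicate 2 it was 0.15, and centred on the spiked controls 0.090, and neither passed (limma adjusted p = 0.43 and 0.62). The let-7a pass rested on the fit without untreated replicate 3 alone. In that fit the let-7e adjusted p was also its lowest, although the let-7e SE rose from 0.096 to 0.109.

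let-7c gave 0.42, 0.37 and 0.45 untreated and 0.65, 0.66 and 0.43 with estradiol. Here too estradiol replicate 3 fell within the untreated range while the other two estradiol arrays lay above it. The difference of 0.16 did not pass (SE 0.10, 95% interval -0.06 to 0.39, limma adjusted p = 0.34).

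let-7d gave -0.04, -0.24 and 0.33 untreated and 0.11, 0.04 and -0.02 with estradiol. The untreated arrays spanned all 3 estradiol values. The difference of 0.03 did not pass (SE 0.13, 95% interval -0.27 to 0.33, limma adjusted p = 0.91), and its sign changed when untreated replicate 2 was left out, to -0.10.

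The other 5 members did not pass the brightness filter, so they were fitted only among all 294 probes. In that fit 6.46% of probes were called, 17 higher and 2 lower, the lower ones being 0.680% of the probes, and let-7e was again the only family member called. The groups of 2 of the 9 members, let-7e and let-7f, did not overlap, against 21.4% of all 294 probes. Of the 9 log ratio differences 6 were above 0 and 3 below, with a median of 0.16, while the median over all 294 probes was -0.02. With Hy3 alone all 9 were below 0. With the reference channel Hy5 alone, every member except let-7e (0.31) was below 0 as well. Those values ran from -1.30 for let-7f and -0.97 for let-7g to -0.21 for miR-98, so the lower Hy3 values were not particular to the sample.

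let-7f was above Hy3 background on 2 untreated and 2 estradiol arrays. Its log ratios were -0.32, -0.47 and -0.39 untreated and 0.20, 0.10 and -0.27 with estradiol. Every estradiol array was higher than every untreated one, with replicate 3 only slightly so. The difference of 0.40 did not pass over all probes (SE 0.15, limma adjusted p = 0.14). It was 0.14 with loess on the 41 probes bright in both channels and turned to -1.02 with Hy3 alone.

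let-7g was above background on 1 array of each group. It gave -0.25, -0.26 and -0.12 untreated and 0.38, 0.31 and -0.15 with estradiol, again with estradiol replicate 3 inside the untreated range. The difference of 0.39 did not pass (SE 0.16, limma adjusted p = 0.18 over all probes). It was 0.075 with loess on the bright probes and turned to -0.57 with Hy3 alone.

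let-7b was not well above background on any array. Its log ratios were -0.03, 0.41 and 0.20 untreated and 0.50, 0.28 and 0.26 with estradiol, and the groups overlapped. let-7i, above background on 1 untreated array, gave 1.17, 1.01 and 0.90 untreated and 1.20, 1.0 and 0.73 with estradiol. Its ratio was above the reference on all 6 arrays, with a mean linear ratio of 2.01, although the reference is described as an equal mixture of the same samples. In Hy5, however, let-7i was above background on 0 arrays, so this ratio has no firm size. let-7c was likewise above the reference on every array, with a mean ratio of 1.42. This was shared by 10 of 50 tested probes with a value on every array, whose median mean ratio was 1.02.

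miR-98 was marked empty in Hy3 on all 6 arrays by the spot finder, and its log ratios lay between -0.34 and 0.35. No fold is given for let-7b, let-7i or miR-98. The only opposite-arm probe of the family on the array, let-7d*, had a difference of 0.12, which did not pass (limma adjusted p = 0.81 over all probes).

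The difference between let-7e and each relative was then taken within each array, where a scaling shared by all probes of an array drops out. This asks directly whether let-7e parted from a near-identical sequence. The let-7e minus let-7a log ratio was 0.38, 0.45 and 0.20 without estradiol and -0.64, -0.86 and -0.30 with it. let-7e was above let-7a relative to the reference on every untreated array and below it on every estradiol array, and the change was -0.94.

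Against let-7c the log ratio differences were -0.02, -0.23 and -0.24 untreated and -1.01, -1.22 and -0.81 with estradiol, a change of -0.85. Against let-7d they were 0.44, 0.38 and -0.11 untreated and -0.47, -0.60 and -0.36 with estradiol, a change of -0.71. In all 3 pairs the groups did not overlap. The two-sided exact permutation test gave p = 0.1 for each, and 0.1 after adjustment over the 3 pairs. This is the smallest p that this test can give with 3 arrays against 3. Without a test, the change was -1.09 against let-7f and -1.08 against let-7g, which were above Hy3 background on only some arrays. All these pairs share the let-7e values and are not independent. let-7b, let-7i and miR-98 were too near background for such a comparison.

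Among the relatives themselves the bright pairs stayed closer together. The change in log ratio was 0.09 for let-7a minus let-7c (exact permutation p = 0.5), 0.23 for let-7a minus let-7d (exact permutation p = 0.2) and 0.14 for let-7c minus let-7d (exact permutation p = 0.6). These p-values do not show that the 3 relatives behaved alike. let-7e had the lowest log ratio change of the 51 tested probes. The wider gaps in pairs that hold let-7e follow from that value and are not a separate result.

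A log ratio can fall because the sample channel falls or because the reference channel rises, so both channels are given as intensity minus local background. These channel comparisons were added after the log ratios had been seen. The let-7e sample channel (Hy3) read 15526, 20427 and 21046 for untreated cells and 21783, 17943 and 18220 after estradiol. The groups overlapped, with means of 19000 ± 3024 and 19315 ± 2142 (SD, n = 3 each). The let-7e reference channel (Hy5) read 9604, 20371 and 21507 untreated and 27718, 24270 and 27138 with estradiol. There every estradiol array was brighter than every untreated one, with means of 17161 ± 6569 and 26375 ± 1847 (SD, n = 3 each), although the labels give the same reference RNA for all arrays. These intensities were not scaled between arrays, and after quantile normalization the overlap turned, with none in Hy3 and overlap in Hy5.

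**Figure D2:**
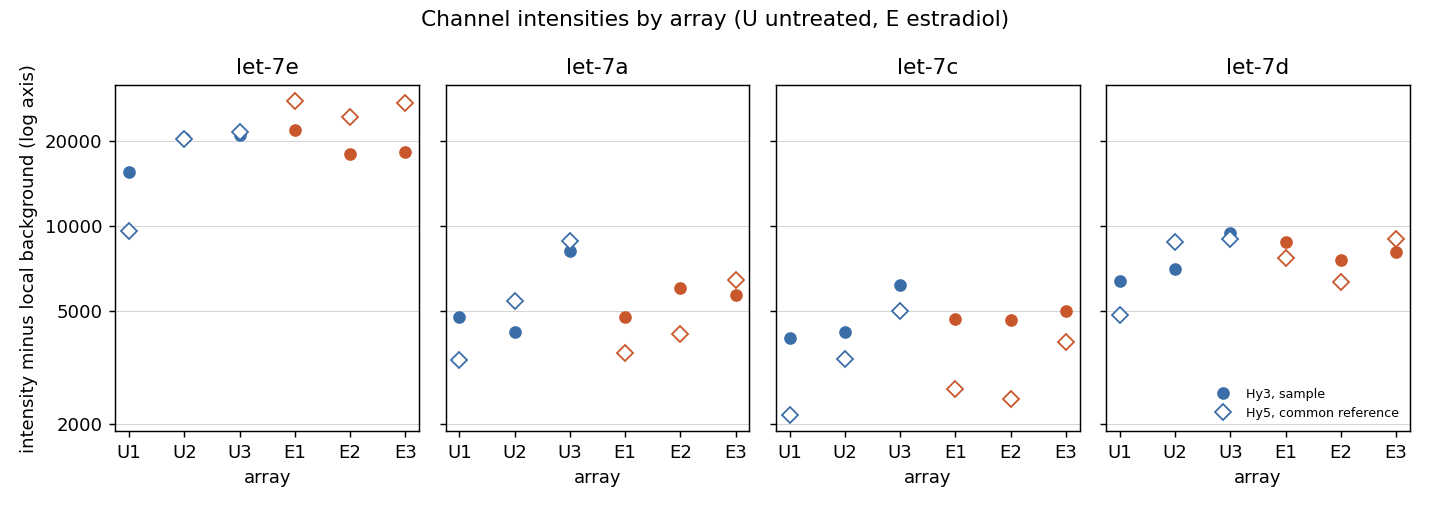
Background-subtracted intensity (vertical log axis) of the sample channel Hy3 (filled circles) and the reference channel Hy5 (open diamonds) on each array for let-7e, let-7a, let-7c and let-7d, with U for untreated and E for estradiol. For let-7e the circles overlap between the groups, whereas the diamonds lie at 9604 to 21507 on untreated arrays and at 24270 to 27718 on estradiol arrays.

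For the 3 bright relatives the reference channel overlapped between the groups. The let-7a reference channel read 3363, 5439 and 8869 untreated and 3555, 4135 and 6416 with estradiol. For let-7c it read 2137, 3382 and 4994 untreated and 2661, 2439 and 3874 with estradiol, and for let-7d 4831, 8776 and 8985 untreated and 7719, 6312 and 8982 with estradiol. In the reference channel untreated replicate 1 was the dimmest array for each of them and for let-7e.

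Within an array, the sample channel placed let-7e above let-7a by 1.72, 2.26 and 1.38 on the log2 scale in untreated cells and by 2.20, 1.56 and 1.70 with estradiol. These values describe how the gap between a pair of probes moved, not which miRNA was more abundant, since probes differ in brightness. The gap changed by 0.03, and the groups overlapped (exact permutation p = 1). The same gap in Hy3 changed by 0.02 for let-7c (exact permutation p = 1) and by -0.10 for let-7d (exact permutation p = 0.6), with overlap in both.

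In the reference channel the let-7e to let-7a gap was 1.39, 1.87 and 1.26 on untreated arrays and 2.95, 2.52 and 2.05 on estradiol arrays, with no overlap. It changed by 1.0, and the corresponding gap changed by 0.91 for let-7c and by 0.61 for let-7d, each without overlap and each with an exact permutation p of 0.1. For let-7f and let-7g, which were above Hy5 background on all 6 arrays, the reference gap changed by 1.52 and 1.12, without overlap. Their sample gaps changed by 0.38 and -0.00, with overlap. Relative to let-7a, let-7c and let-7d, the let-7e ratio thus moved with the reference gap, while the sample gap overlapped between the groups. The cause was not tested.

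**Figure D3:**
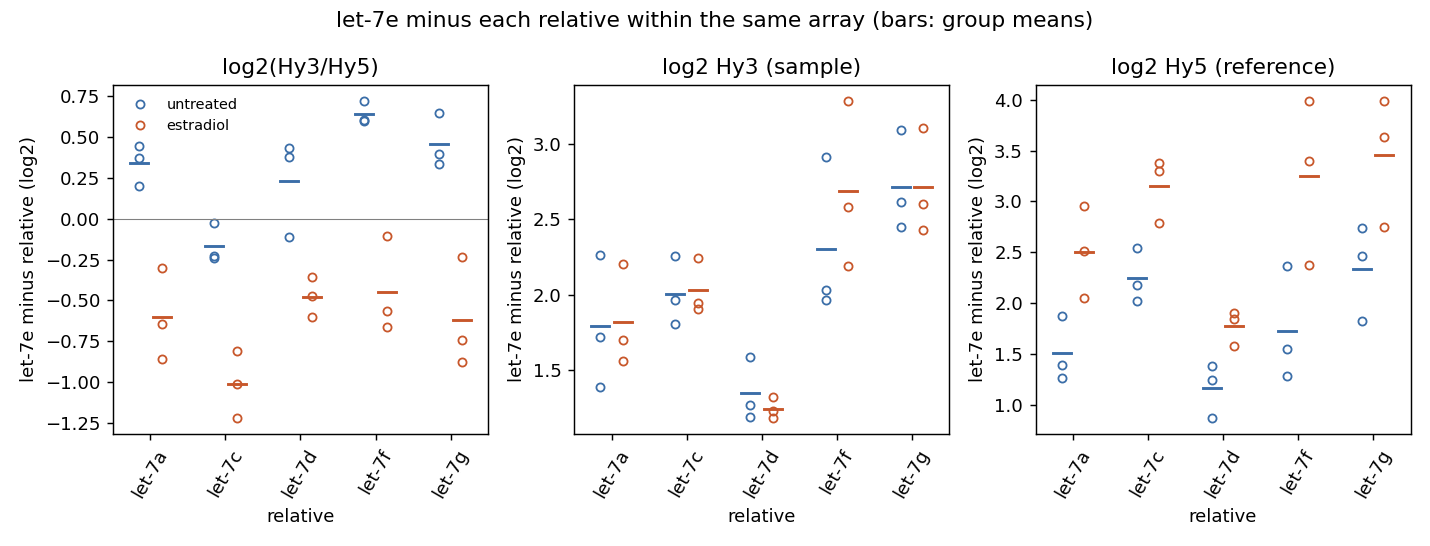
Difference between let-7e and each of 5 relatives within each array (vertical axes, log2), for the log ratio, the sample channel and the reference channel, with 1 point per array and bars at the group means. The groups do not overlap in the log ratio and reference panels for these 5 relatives, and in the sample panel they overlap for all 5.

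To set the family against the other probes, each channel was also quantile normalized between arrays. In Hy3 the differences were -0.41 for let-7e, -0.48 for let-7a, -0.51 for let-7c and -0.37 for let-7d, which put them at ranks 6, 5, 4 and 9 from the lowest of 51 probes. The 4 members thus lay close together and low in the sample channel, and the let-7e difference did not pass there (SE 0.19, limma adjusted p = 0.25), although its groups did not overlap (exact permutation p = 0.1). In Hy5 the differences were 0.31 for let-7e, -0.71 for let-7a, -0.69 for let-7c and -0.42 for let-7d, at ranks 33, 4, 5 and 10 from the lowest. In the reference let-7e stood apart from its relatives but not from the bulk of the probes, whose median was 0.19 with an SD of 0.49 and a range of -1.24 to 0.99. limma called 0 probes in Hy5 and found 4 with an unadjusted p under 0.05, and let-7e had an adjusted p of 0.39 (SE 0.19). Its Hy5 groups overlapped on this scale (exact permutation p = 0.4), and those of let-7d did not (exact permutation p = 0.1).

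**Figure D4:**
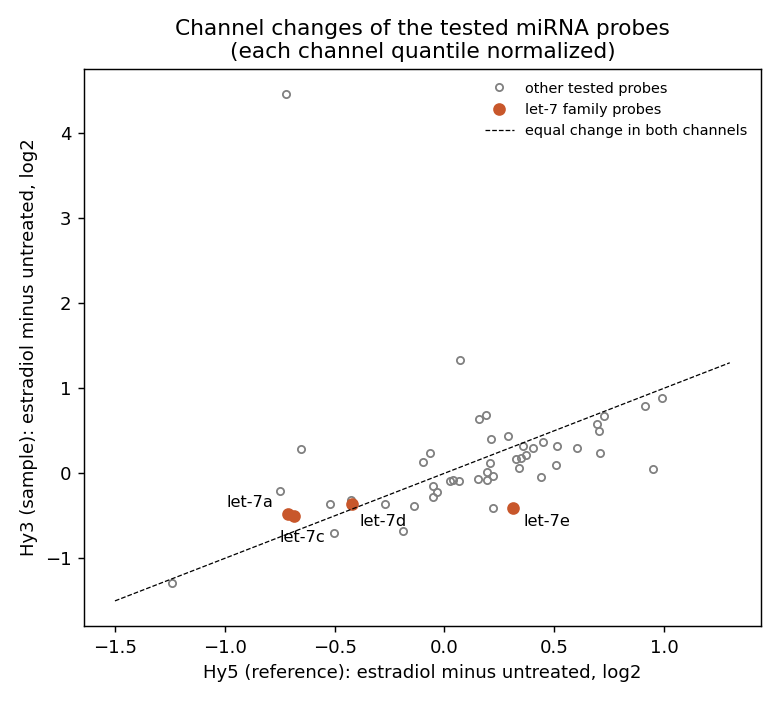
Estradiol minus untreated in the quantile-normalized sample channel (Hy3, vertical axis) against the reference channel (Hy5, horizontal axis), both in log2 with a dashed line of equal change, for the 51 tested probes, with the 4 tested family members named. In the sample channel the 4 members lie between -0.51 and -0.37, and in the reference channel let-7e lies at 0.31 with the 3 relatives between -0.71 and -0.42.

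The pattern of the members across the 6 arrays is described by Pearson's r of their log ratios, which includes the difference between the groups and rests on the same arrays and reference throughout. let-7a, let-7c, let-7f and let-7g followed each other with r between 0.88 and 0.99. Each was lower in estradiol replicate 3 than in the other estradiol arrays. let-7e ran opposite to them, at -0.56 with let-7a, -0.72 with let-7c, -0.76 with let-7f and -0.76 with let-7g. With let-7d its r was -0.04. The tested probes of other miRNAs most like let-7e were miR-546 (r = 0.96), probe 14284 of miR-422b (r = 0.92) and miR-503 (r = 0.87), over 6 arrays each. None of these 3 was called, and their differences were -0.22, -0.22 and -0.31 (limma adjusted p = 0.12, 0.11 and 0.057).

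Of the miRNAs known to lie in clusters with let-7 genes, miR-99a, miR-99b, miR-100, miR-125a and miR-125b, 2 of 5 were tested. None of those 2 was called, against 13.7% of the tested probes, and none of the 5 was called without the brightness filter, against 6.46% of probes, counts too small to set these miRNAs apart. miR-125a, encoded beside let-7e, gave log ratios of 0.05, 0.12 and -0.02 untreated and -0.04, 0.07 and -0.04 with estradiol. The groups overlapped and the difference of -0.05 did not pass (SE 0.08, 95% interval -0.24 to 0.13, limma adjusted p = 0.73), an interval that does not reach the let-7e difference. miR-99b, the other neighbour of let-7e, was too dim to test and differed by -0.01. For miR-125b the difference of -0.04 did not pass (limma adjusted p = 0.88). miR-100 and miR-99a were not above background on any array, the miR-99a groups did not overlap, and neither passed over all 294 probes (limma adjusted p = 0.78 and 0.28).

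**Figure D5:**
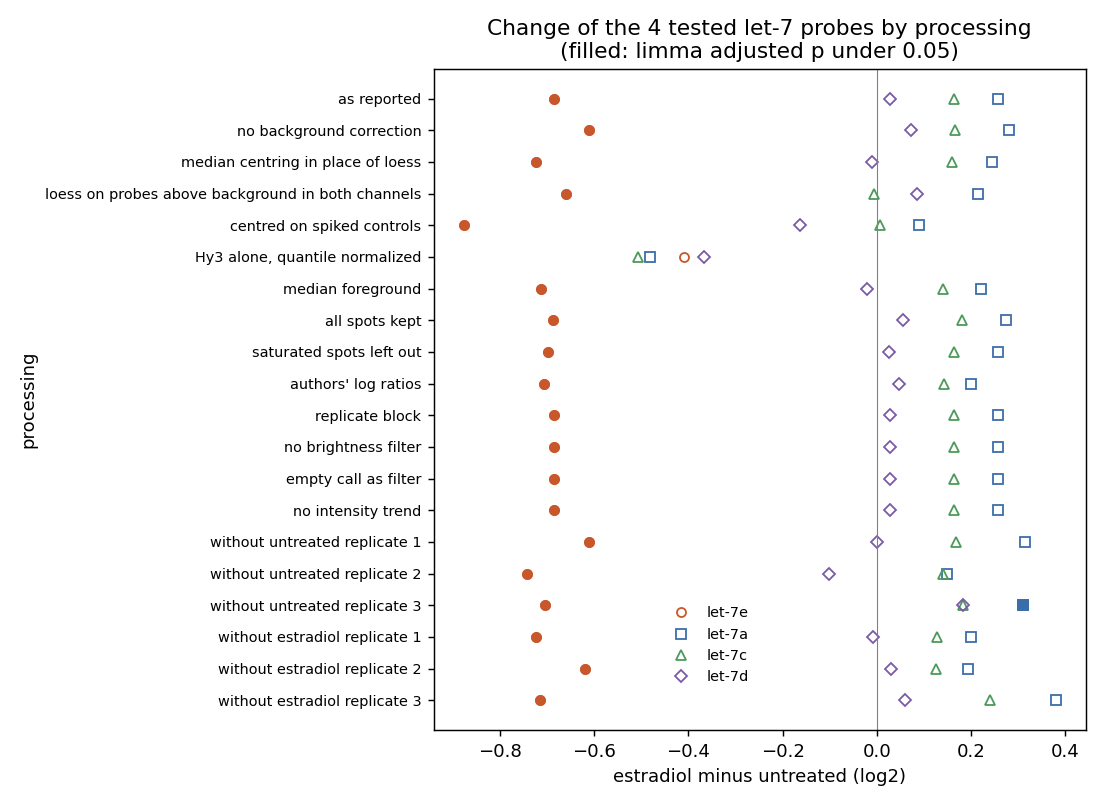
Difference between the groups (horizontal axis, log2) for the 4 tested family members under the reported processing and each alternative (vertical axis), with filled symbols where the limma adjusted p was under 0.05. let-7e lies between -0.88 and -0.61 and is filled in every setting except the Hy3 channel alone, where it lies at -0.41 beside its relatives.

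The let-7e difference passed the threshold in 18 of 19 other ways of processing these arrays, and the exception was the sample channel taken alone. Those 18 all use the ratio to the Hy5 reference, so their count does not bear on the sample channel by itself. There let-7a, let-7c and let-7d differed by -0.48, -0.51 and -0.37, lower with estradiol rather than higher, and 0 family members were called.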

How the data were processed

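Mature miRNAs of 6 cultures were measured on 2-colour arrays. The authors deposited scanner tables with the foreground and local background intensity of every spot in each channel, not background-subtracted, per the file headers. They also deposited a normalized Hy3/Hy5 ratio per probe (lowess within the array, per the file headers) and its log2. The direction of the ratio follows from the dyes in the labels, and no dye swap is described. Medians of the value table's columns were 0.08, 0.04 and 0.09 untreated and -0.01, -0.01 and -0.00 with estradiol. The scanner and spot-finding software were not given in the sources used here.

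Mean foreground and median background were corrected with normexp (offset 50). Log ratios were normalized by global loess within each array with control spots at weight 0, and a probe's spots were then averaged (limma 3.58.1, R 4.3.3). Between 111 and 212 spots per array, marked by the spot finder for their shape or contamination, were dropped, and saturated spots were kept. Of 24 spots per member over the arrays, 6 of let-7b, 5 of let-7f and 1 of let-7d were left out. The brightness filter left 51 of 294 probes. Groups were compared by limma's lmFit and eBayes, with a trend in intensity, Benjamini-Hochberg adjustment and a threshold of 0.05. Pairs of members were compared with exact two-sided permutation tests. The procedure was also run on simulated data with known Hy3 changes and equal reference levels on all arrays. Hy5 brightness differed between the arrays here, so that run does not bear on the reference channel. Alternatives changed background correction, normalization, spots, filter, trend, replicate block and single replicates. Plots were made in Python 3.11.15 (matplotlib 3.10.9).

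Groups and replicate numbers come from the sample titles. The number of arrays limits the precision. Members, neighbour and marker lists, and tests were chosen with earlier results of these data known. Named miRNAs are the 9 members, their listed neighbours, the let-7d* arm, and the 3 tested probes of other miRNAs that correlate best with let-7e. The files name no genome build.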

Additional observations from a re-analysis of the deposited data

How the results depend on the processing

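The let-7e difference was called in 18 of 19 alternatives, between -0.88 and -0.61, and between -0.74 and -0.61 when single replicates were left out. Changes of filter, trend or replicate block left the difference itself at -0.69. Its limma adjusted p ranged from 1.48e-08 to 0.249. The lowest came without untreated replicate 3, where the SE was 0.109 against 0.096 with all arrays, so it does not mark firmer data. The highest came with Hy3 alone, where the difference was -0.41. The 7 called probes became 11 without background correction, 4 under median centring, 3 with Hy3 alone, 19 of 294 without the brightness filter, 15 of 90 with the empty call as filter and 5 to 10 without single replicates. Of the calls, 85.7% were higher, against 75% under median centring, 75% with loess on bright probes, 30% on spiked controls, and 100% with Hy3 alone. Spiked controls shifted the median of all tested probes from -0.05 to -0.26, and let-7e lay 0.63 and 0.61 below that median. Family calls numbered 0 with Hy3 alone and 1 to 2 without single replicates, let-7a being the second. let-7a turned to -0.48 with Hy3 alone, and let-7c to -0.51 with Hy3 alone and -0.0067 with loess on bright probes. let-7d turned to -0.0093 under median centring, -0.16 on spiked controls, -0.37 with Hy3 alone and -0.021 with median foreground, and ranged from -0.10 to 0.18 without single replicates. With Hy3 alone, the let-7e difference from a relative was 0.073 for let-7a, 0.096 for let-7c, 0.030 for let-7b, 0.61 for let-7f, 0.16 for let-7g and 0.46 for let-7i. It stayed negative for let-7d (-0.043) and miR-98 (-0.29). With loess on the 41 bright probes, which hold 4 members, it was -0.10 for let-7b, -0.80 for let-7f, -0.73 for let-7g, 0.058 for let-7i and 0.86 for miR-98, none of which entered that loess. That loess put let-7b at -0.55, let-7i at -0.72 and miR-98 at -1.52 themselves, and Hy3 alone put let-7b at -0.44 and let-7i at -0.87. Without single replicates it ranged from -1.09 to -0.81 for let-7a, -1.0 to -0.65 for let-7b, -0.95 to -0.75 for let-7c, -0.89 to -0.61 for let-7d, -1.26 to -0.98 for let-7f, -1.27 to -0.95 for let-7g, -0.79 to -0.56 for let-7i and -0.85 to -0.38 for miR-98. The cause of these shifts was not tested. Same-numbered deviations correlated at 0.07, -0.11 and -0.12, and differently numbered ones between -0.18 and 0.29. With so few arrays this cannot show whether replicate numbers pair the cultures. With the replicate number as a block, 8 probes were called and let-7e had an adjusted p of 0.0028 (limma, SE 0.061 against 0.096 without it). For the pairs of members, the smallest p with a replicate block is 0.25. Dim signal limits let-7f and let-7g, and let-7b, let-7i and miR-98 were so near background that their differences have no firm size.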
